A study of Drosophila melanogaster with 10 samples.

Results

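The genes carried by mitochondrial DNA were followed through whole 3rd instar larvae of *Drosophila melanogaster* in which parts of the architectural proteins CTCF, Su(Hw) and Pita were altered. They were chosen by name, as every gene whose FlyBase symbol starts with mt:, which gave 38 of the 17735 genes in the count tables. These are 13 protein genes, 2 ribosomal RNA genes, 22 transfer RNA genes and the control region mt:ori. Of the 38, 14 had enough reads to be tested: 12 protein genes and both ribosomal RNA genes. The 24 others were mt:ATPase8, all tRNA genes and mt:ori. Averaged over the 2 libraries of a genotype, all 14 were highest in larvae with the CTCF mutation alone and lowest in those with the CTCF and Su(Hw) mutations, and replicate libraries of 3 genotypes lay far apart.

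Mitochondrial DNA is a small circle that is copied and read inside the organelle by proteins made from nuclear genes. Its long transcripts are cut, mostly at the tRNAs that lie between the other genes, into messenger RNAs for core subunits of respiratory complexes I, III and IV and of the ATP synthase (complex V), and into the rRNAs of the mitochondrial ribosome. In flies most of these messengers and the large rRNA carry A tails, so they are captured by oligo(dT). All members sit on 1 molecule in 1 organelle and share their transcripts, so they are not independent replicates of any condition.

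Larvae of strain y1w1118 were raised at 25 °C, and each of the 5 genotypes gave 2 libraries. The wild type carries no labelled mutation. The other 4 genotypes all carry dCTCFdeltaCP, alone (the single mutant), with SuHwdelta114 (the Su(Hw) double mutant), with PitadeltaCP1 (the Pita double mutant) or with both (the triple mutant), and libraries are named by these words and their replicate number. The design text says that the mutations lie in domains that interact with CP190, a protein that such zinc-finger proteins recruit to chromatin. No genotype carries the Su(Hw) or the Pita mutation with intact CTCF, so both were measured on the single mutant background. RNA came from 100 mg of larvae per extraction, so numbers of cells of a type and RNA per cell cannot be told apart. Whether replicate libraries come from separate larvae, and whether the closely matching Su(Hw) double libraries come from separate RNA, was not stated. The p-values therefore measure the spread between libraries, which may be technical.

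Libraries held 5670793 to 8220126 reads assigned to genes, 25.6% to 39.8% of all reads, and 50.9% to 65.5% mapped to several places and were not counted. Levels are given as CPM, the reads of a gene scaled to the TMM-adjusted size of its library, in which 1 read stands for 0.0927 to 0.289 CPM. As a check of the labels, su(Hw) stood at 20.7 to 26.3 CPM in the 6 libraries without its mutation and at 386 to 571 in the 4 with it. The pita gene stood at 17.1 to 31.5 CPM without its mutation and at 152 to 218 with it. Higher RNA of su(Hw) or pita thus came with its mutation in every such library, and the altered protein and the raised RNA cannot be told apart. CTCF, whose altered part is not visible in gene counts, stood at 13.9 and 14.4 CPM in wild type, 8.10 and 5.56 in the single mutant, 11.1 and 11.01 in the Su(Hw) double mutant, and 18.1 to 26.5 in the Pita double and triple mutants. Cp190 stood at 43.5 to 55.4 CPM in wild type, both double mutants and triple 1, at 26.04 and 23.8 in the single mutant and at 15.1 in triple 2. Markers of larval tissues were present in every library, with muscle genes at a summed 28339 to 73277 CPM and larval cuticle genes at 13474 to 37168 CPM.

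Within wild type the members spanned a wide range of levels. Per kb of gene, mt:lrRNA, the large ribosomal RNA (FBgn0013686, mitochondrial genome 12735 to 14058, minus strand, in Ensembl's annotation of the fly genome), stood at 92189 ± 3995 CPM per kb (mean ± SD, n = 2), 12.1 times the next gene. The complex IV subunit genes mt:CoIII, mt:CoI and mt:CoII followed at 7612 ± 762, 6888 ± 456 and 5637 ± 346 CPM per kb, then the complex III gene mt:Cyt-b at 4678 ± 392 and the ATP synthase gene mt:ATPase6 at 4173 ± 119.7. A step of 2.59 times led down to mt:srRNA, the small ribosomal RNA, at 1609 ± 14.2 CPM per kb.

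Below these came the complex I genes. The 4 genes mt:ND3, mt:ND4, mt:ND1 and mt:ND5 lay close together, at 677 ± 16.9, 648 ± 20.2, 628 ± 11.6 and 550 ± 5.37 CPM per kb. The rest were far lower, with mt:ND4L at 25.2 ± 3.92, mt:ND2 at 18.4 ± 5.75 and mt:ND6 at 3.50 ± 0.543 CPM per kb. Neighbours whose wild type libraries overlapped were mt:CoIII and mt:CoI, mt:ND4 and mt:ND1, and mt:ND4L and mt:ND2. For mt:ND2, mt:ND4L and mt:ND6 the level per kb may be set in part by the counting, since a fragment that also touches a neighbouring gene is placed in the ambiguous class of the count files and not in the gene. That part was not tested. The order held closely across genotypes: in all 10 libraries mt:lrRNA ranked 1 and mt:ND6 ranked 14 per kb, while mt:CoI and mt:CoIII took ranks from 2 to 4.

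**Figure D1:**
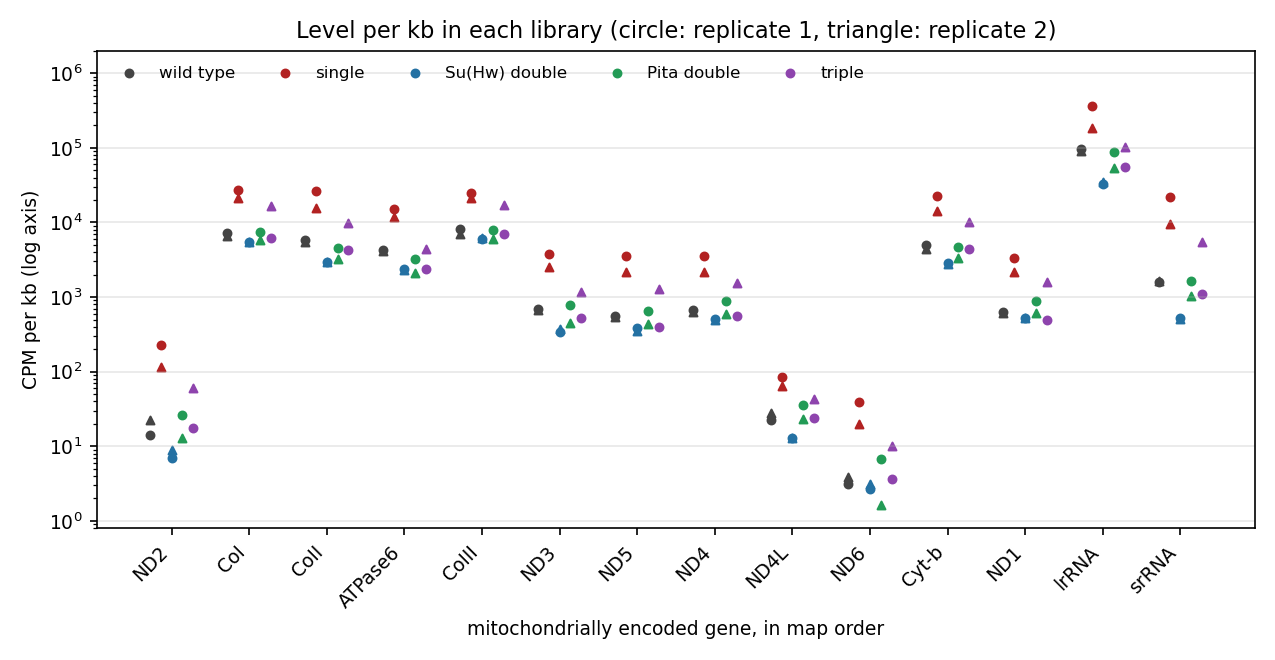
Level of each tested mitochondrially encoded gene in CPM per kb (log axis), in map order, with 1 point per library (circle for replicate 1, triangle for replicate 2) coloured by genotype. The single mutant libraries lie above the wild type libraries for all 14 genes, and the triple mutant libraries lie apart from each other.

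The share of the library taken by these genes differed between genotypes. Mitochondrially encoded genes held 14.2% and 14.6% of the assigned reads in wild type, 34.6% and 24.2% in the single mutant, 8.67% and 8.80% in the Su(Hw) double mutant, 18.7% and 12.9% in the Pita double mutant, and 11.7% and 18.1% in the triple mutant. Both single mutant libraries lay above and both Su(Hw) double libraries below all others. The large rRNA made up 65.9% to 79.2% of the mitochondrial reads, so it set most of that share. Without it the share was 3.39% and 3.43% in wild type, 11.2% and 8.47% in the single mutant, 3.12% and 3.06% in the Su(Hw) double mutant, 4.86% and 3.62% in the Pita double mutant, and 3.53% and 7.01% in the triple mutant. As a ratio to nuclear reads within each library, which needs no scaling between libraries, mitochondrial reads numbered 0.168 ± 0.00395 per nuclear read in wild type, 0.423 ± 0.148 in the single mutant, 0.0957 ± 0.00106 in the Su(Hw) double mutant, 0.189 ± 0.0576 in the Pita double mutant and 0.177 ± 0.0623 in the triple mutant (SD, n = 2). An exact permutation test of the F statistic over the 5 genotypes gave p = 0.0190 for the log2 ratio, adjusted p = 0.0476 over 5 such ratios. The adjusted p lay above 0.05 on leaving out any 1 library except single 2 or triple 2, and reached 0.171 without Su(Hw) double 2.

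**Figure D2:**
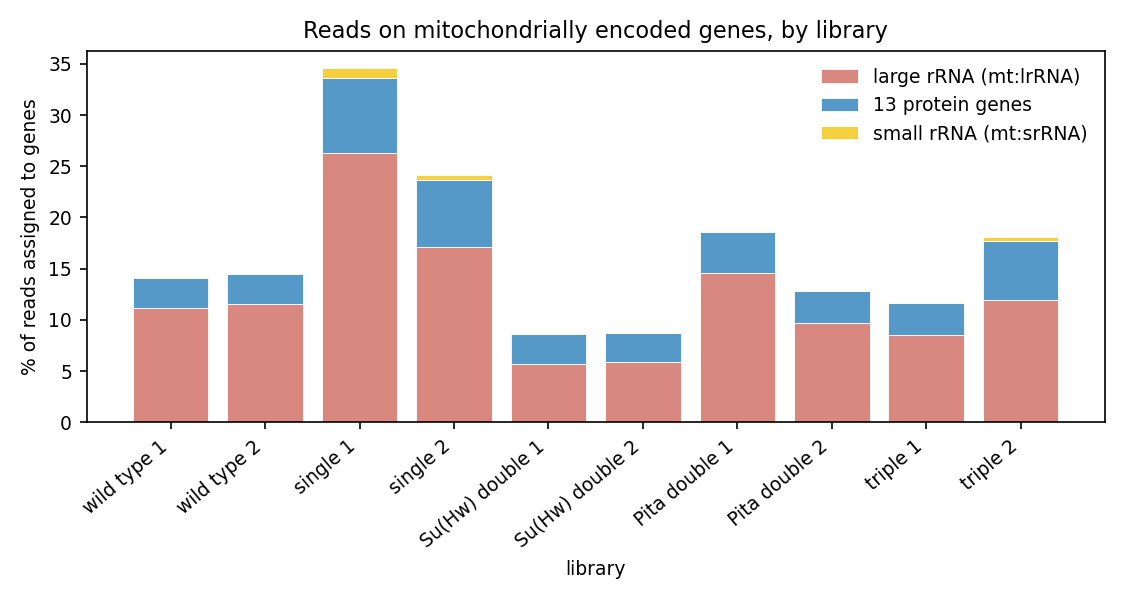
Share of each library's assigned reads (%) that fell on the large mitochondrial rRNA, the 13 protein genes and the small mitochondrial rRNA, stacked, for 10 libraries. The bars reach 34.6% and 24.2% in the single mutant, against 14.2% and 14.6% in wild type and 8.67% and 8.80% in the Su(Hw) double mutant.

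The 3 complex IV genes encode the catalytic core of cytochrome c oxidase. Together they stood at 20448 ± 1538 CPM (mean ± SD of 2 libraries) for wild type, 69814 ± 14444 in the single mutant, 15174 ± 30.7 in the Su(Hw) double mutant, 18365 ± 3429 in the Pita double mutant and 31723 ± 19402 in the triple mutant. By library, mt:CoI, the subunit that holds the oxygen-reducing centre (FBgn0013674, 1474 to 3009, plus strand), stood at 11075 and 10085 CPM in wild type, 42314 and 32354 in the single mutant, 8375 and 8388 in the Su(Hw) double mutant, 11474 and 8949.9 in the Pita double mutant, and 9509 and 25366 in the triple mutant. Both single mutant libraries were above all others, and triple 2 stood above every library outside the single mutant while triple 1 lay below both wild type libraries. The electron-accepting subunit gene mt:CoII (FBgn0013675, 3083 to 3767, plus strand) stood at 4029 and 3694 CPM in wild type, 17890.4 and 10608 in the single mutant, 2042 and 1994 in the Su(Hw) double mutant, 3141 and 2213 in the Pita double mutant, and 2943 and 6743 in the triple mutant. Its Su(Hw) double libraries were the lowest of all, and the Pita double libraries lay between these and wild type. For mt:CoIII (FBgn0013676, 4736 to 5524, plus strand) the values were 6431 and 5581 CPM in wild type, 19823 and 16638 in the single mutant, 4735 and 4813 in the Su(Hw) double mutant, 6174 and 4777 in the Pita double mutant, and 5552 and 13334 in the triple mutant. The same libraries stood at the top, and Pita double and wild type overlapped. Against wild type the single mutant was higher by a log2 fold change of 1.82 (SE 0.39, adjusted p = 0.0298) for mt:CoI, 1.88 (SE 0.38, adjusted p = 0.0222) for mt:CoII and 1.60 (SE 0.35, adjusted p = 0.0336) for mt:CoIII.

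The complex III gene mt:Cyt-b, which encodes the quinol-oxidising cytochrome b (FBgn0013678, 10499 to 11635, plus strand), was also highest in the single mutant and lowest in the Su(Hw) double mutant. It stood at 5634 and 5004 CPM in wild type, 25812 and 16026 in the single mutant, 3264 and 3138 in the Su(Hw) double mutant, 5368 and 3740.3 in the Pita double mutant, and 4990.0 and 11619 in the triple mutant. Its log2 fold change was 1.98 (SE 0.38, adjusted p = 0.0192) in the single mutant and -0.73 (SE 0.37, adjusted p = 0.146) in the Su(Hw) double mutant against wild type, so the first passed the threshold and the second did not.

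The 7 complex I genes encode membrane subunits of NADH dehydrogenase. Together they stood at 2669.6 ± 45.9 CPM (mean ± SD of 2 libraries) for wild type, 12649.6 ± 4229 in the single mutant, 1935 ± 34.4 in the Su(Hw) double mutant, 2857 ± 816 in the Pita double mutant and 4179 ± 2933 in the triple mutant. The gene mt:ND5 (FBgn0013684, 6409 to 8125, minus strand), a proton-pumping subunit, stood at 951 and 938 CPM in wild type, 6125 and 3676 in the single mutant, 659 and 609 in the Su(Hw) double mutant, 1123 and 737 in the Pita double mutant, and 685 and 2169 in the triple mutant. Its neighbour mt:ND4 (FBgn0262952, 8207 to 9545, minus strand), also a pumping subunit, stood at 887 and 849 CPM in wild type, 4755 and 2929.5 in the single mutant, 677 and 664 in the Su(Hw) double mutant, 1172 and 789.6 in the Pita double mutant, and 740.3 and 2086 in the triple mutant. In both, the single mutant libraries were the highest, Pita double 1 lay above wild type, and triple 2 stood between wild type and the single mutant. The quinone-site subunit gene mt:ND1 (FBgn0013679, 11721 to 12659, minus strand) stood at 598 and 582 CPM in wild type, 3150.3 and 2019.8 in the single mutant, 491 and 492 in the Su(Hw) double mutant, 825 and 573 in the Pita double mutant, and 468 and 1509 in the triple mutant. The small subunit gene mt:ND3 (FBgn0013681, 5608 to 5961, plus strand) stood at 244 and 235 CPM in wild type, 1332 and 888 in the single mutant, 119 and 131 in the Su(Hw) double mutant, 273 and 159.7 in the Pita double mutant, and 185 and 408 in the triple mutant. These 2 differed in the triple mutant, where triple 1 was the lowest of all libraries for mt:ND1 but lay above both Su(Hw) double libraries for mt:ND3. Log2 fold changes in the single mutant against wild type were 2.38 (SE 0.45, adjusted p = 0.0184) for mt:ND5, 2.15 (SE 0.42, adjusted p = 0.0196) for mt:ND4, 2.13 (SE 0.44, adjusted p = 0.0258) for mt:ND1 and 2.21 (SE 0.36, adjusted p = 0.00869) for mt:ND3.

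The 3 remaining complex I genes rested on far fewer reads. The gene mt:ND2 (FBgn0013680, 240 to 1263, plus strand), a pumping subunit, stood at 14.7 and 23.0 CPM in wild type, 233 and 118 in the single mutant, 7.14 and 9.19 in the Su(Hw) double mutant, 27.2 and 13.3 in the Pita double mutant, and 17.9 and 62.1 in the triple mutant. The gene mt:ND6 (FBgn0013685, 9971 to 10495, plus strand) stood at 1.63 and 2.04 CPM in wild type, 20.8 and 10.4 in the single mutant, 1.39 and 1.63 in the Su(Hw) double mutant, 3.60 and 0.868 in the Pita double mutant, and 1.93 and 5.23 in the triple mutant. Both single mutant libraries were again the highest, and mt:ND6 in Pita double 2, at 9 reads, was the lowest of all. The gene mt:ND4L (FBgn0013683, 9545 to 9835, minus strand), which shares 1 bp with mt:ND4, stood at 6.53 and 8.15 CPM in wild type, 24.3 and 18.5 in the single mutant, 3.80 and 3.73 in the Su(Hw) double mutant, 10.4 and 6.75 in the Pita double mutant, and 7.06 and 12.7 in the triple mutant. Its Su(Hw) double libraries agreed closely and lay below all others. Against wild type the single mutant was higher by 3.21 (SE 0.55, adjusted p = 0.0106) on the log2 scale for mt:ND2, by 3.06 (SE 0.61, adjusted p = 0.0222) for mt:ND6 and by 1.53 (SE 0.31, adjusted p = 0.0222) for mt:ND4L, whose change was the smallest of the 14.

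For the ATP synthase, mt:ATPase6 (FBgn0013672, 4062 to 4736, plus strand), which encodes the proton channel subunit, stood at 2874 and 2759.5 CPM in wild type, 10078 and 7863 in the single mutant, 1599 and 1557 in the Su(Hw) double mutant, 2183 and 1439.9 in the Pita double mutant, and 1585 and 2986 in the triple mutant. Triple 2, which was above wild type in the other protein genes, was here close to wild type, and both Pita double libraries lay below wild type. The log2 fold change against wild type was 1.67 (SE 0.31, adjusted p = 0.0156) in the single mutant and -0.30 (SE 0.30, adjusted p = 0.511) in the triple mutant. The overlapping gene mt:ATPase8 (FBgn0013673, 3907 to 4068, plus strand), which shares 7 bp with mt:ATPase6, had 0 to 2 reads per library and 10 in all. It was too low to test, and what fragments reaching into mt:ATPase6 took from it was not tested.

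The ribosomal RNAs changed unequally. The large rRNA gene mt:lrRNA stood at 125798 and 118318 CPM in wild type, 476650.0 and 245811 in the single mutant, 43691 and 45668 in the Su(Hw) double mutant, 115710.0 and 71631 in the Pita double mutant, and 72599 and 136637 in the triple mutant. The small rRNA gene mt:srRNA (FBgn0013688, 14131 to 14916, minus strand) stood at 1257 and 1273 CPM in wild type, 17071 and 7415 in the single mutant, 406 and 399.9 in the Su(Hw) double mutant, 1293 and 801 in the Pita double mutant, and 864 and 4343 in the triple mutant. Both single mutant libraries and triple 2 were the highest for either gene, but the gap was wider for mt:srRNA. There were 100.1 and 93.0 large rRNA reads per small rRNA read in wild type, 27.9 and 33.1 in the single mutant, 108 and 114 in the Su(Hw) double mutant, 89.5 and 89.4 in the Pita double mutant, and 84.1 and 31.5 in the triple mutant. Thus 3 libraries, single 1, single 2 and triple 2, stood apart from the other 7 in this ratio, for which no test was made. Against wild type, mt:srRNA was higher in the single mutant by a log2 fold change of 3.27 (SE 0.63, adjusted p = 0.0192), and mt:lrRNA by 1.57 (SE 0.41, adjusted p = 0.0648), which missed the threshold. In the Su(Hw) double mutant mt:lrRNA fell by 1.45 (SE 0.41, adjusted p = 0.0197), while mt:srRNA had a log2 fold change of -1.65 (SE 0.59, adjusted p = 0.0524).

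The 22 tRNA genes, 62 to 72 bp long, had 0 reads in every library in the unstranded counts. A count of 0 allows up to 3 reads per library, which is 0.278 to 0.868 CPM, counting error only. Fragments longer than a tRNA that run into the next gene are not assigned in this kind of count, so the 0 does not speak to tRNA abundance. The control region mt:ori (FBgn0013687, 14917 to 19524), which holds the origin of replication and is not known to make a stable transcript, had 1 read in all.

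The first comparison asks what the CTCF mutation alone came with. Of the tested mitochondrially encoded genes 13 of 14 rose in the single mutant at an adjusted p under 0.05, where 3.37% of all 10585 genes were called and 2.2% were called higher (edgeR quasi-likelihood F-test, Benjamini-Hochberg adjustment over all genes). The exception was mt:lrRNA, at 1.57. All 7 complex I genes, all 3 complex IV genes, mt:Cyt-b, mt:ATPase6 and mt:srRNA were called. The median log2 fold change of the 14 was 2.05, with a range from 1.53 to 3.27, against -0.02 for all genes. The largest were mt:srRNA at 3.27, mt:ND2 at 3.21 and mt:ND6 at 3.06, and the other 11 lay between 1.53 and 2.38. Genes on the plus strand had a median of 1.93 over 8 protein genes, and those on the minus strand 2.14 over 4. Both single mutant libraries lay above both wild type libraries for all 14. How many of all genes separated in this way was not counted, here or in the comparisons below.

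The direction was the same when any library was left out, with a median log2 fold change of 1.70 without single 1 to 2.34 without single 2. The count of calls was not: it fell on leaving out either library of the wild type, the single mutant or the Su(Hw) double mutant. The number of all genes called fell in each of these fits as well. Scaling by library totals in place of TMM, which shifted all genes by a median of -0.59 here, gave 14 calls and a median of 1.44. Of all 10585 genes 1314 were called under that scaling. Markers of some tissues moved with this comparison: the summed level of 6 midgut enzyme genes, all detected, was 2565 and 4501 CPM in wild type and 7119 and 10509 in the single mutant, and that of 6 fat body genes, all detected, 48338 and 56628 against 69256 and 76722. Midgut genes were also at 9532 CPM in triple 2 and 5311 in triple 1. The 8 muscle genes were at 62199 and 64561 CPM in wild type and 68041 and 73277 in the single mutant. Larval cuticle genes were at 32185 and 33695 CPM in wild type and 35512 and 37168 in the single mutant. Lower in the single mutant were 5 neuron genes, at 91.7 and 95.3 CPM against 109 and 116 in wild type. So were 4 hemocyte genes, at 473 and 463 CPM against 563 and 590. Testis genes overlapped between both genotypes. The 6 salivary gland genes, all detected, were at 247 and 14.4 CPM in wild type and 1259 and 474 in the single mutant, and 4 genes of adult flies (3 yolk protein genes and the opsin gene ninaE), all detected, at 10.3 and 14.4 against 137 and 89.5. Nuclear RNAs that lack a long A tail in cells (snRNA, snoRNA, rRNA and tRNA genes) stood at a summed 292 and 339 CPM of nuclear reads in wild type, 429 and 386 in the single mutant, 148 and 185 in the Su(Hw) double mutant, 315 and 296 in the Pita double mutant, and 268 and 343 in the triple mutant. These values were highest in the single mutant and lowest in the Su(Hw) double mutant, as the mitochondrial levels were. The part of tissue make-up and of the capture of such RNAs in the mitochondrial levels was not tested. With the level of nuclear rRNA pseudogenes as a covariate, described further on, 0 of the 14 were called, where 18 of all 10585 genes were.

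The 3 other genotypes were set against the same wild type libraries. In the Su(Hw) double mutant all 14 genes were lower than in wild type in both libraries, a separation not counted over all genes. Only 2 of 14 were called, both lower, where 33.3% of all genes were called and 17.4% called lower. These were mt:lrRNA and mt:ND4L, the latter with a log2 fold change of -0.96 (SE 0.33, adjusted p = 0.0442). The median over the 14 was -0.78, against -0.01 for all genes. Complex I genes ranged from -1.21 to -0.26 and complex IV genes from -0.94 to -0.33. Under scaling by library totals, with the median of all genes at 0.48, the median of the 14 was -0.30 and 1 was called. The number of all genes called in this comparison also changed when a library was left out. Leaving out 1 library gave 0 calls without either wild type or either Su(Hw) double library, 4 without either Pita double library and 8 without either triple library.

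In the Pita double mutant 0 of 14 were called against wild type with edgeR, 0 with DESeq2 and 0 at an unadjusted p below 0.05, where 37.8% of all genes were called with edgeR and 19.2% called lower. The log2 fold changes ran from -0.64 for mt:ATPase6 to 0.25 for mt:ND1 with a median of -0.09. Their SEs of 0.30 to 0.70 leave changes of that size, and larger ones, undecided. The median changed sign under library totals, to 0.39 with all genes at 0.48, and without Pita double 2, to 0.14. Pita double libraries lay below both wild type libraries for 3 of 14 genes and overlapped them for the others, which was not counted over all genes.

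In the triple mutant 0 of 14 were called against wild type with edgeR, 0 with DESeq2 and 0 at an unadjusted p below 0.05, where 21.2% of all genes were called with edgeR and 10.3% called lower. The median log2 fold change was 0.65, against 0.00 for all genes, with 12 of 14 above 0. The 2 below 0 were mt:ATPase6 at -0.30 and mt:lrRNA at -0.22. The value rested on 1 library: without triple 2 the median was -0.29 with 1 gene called, and without triple 1 it was 1.17 with 8 called. The triple mutant libraries overlapped wild type for all 14. All 4 comparisons share the wild type libraries.

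**Figure D3:**
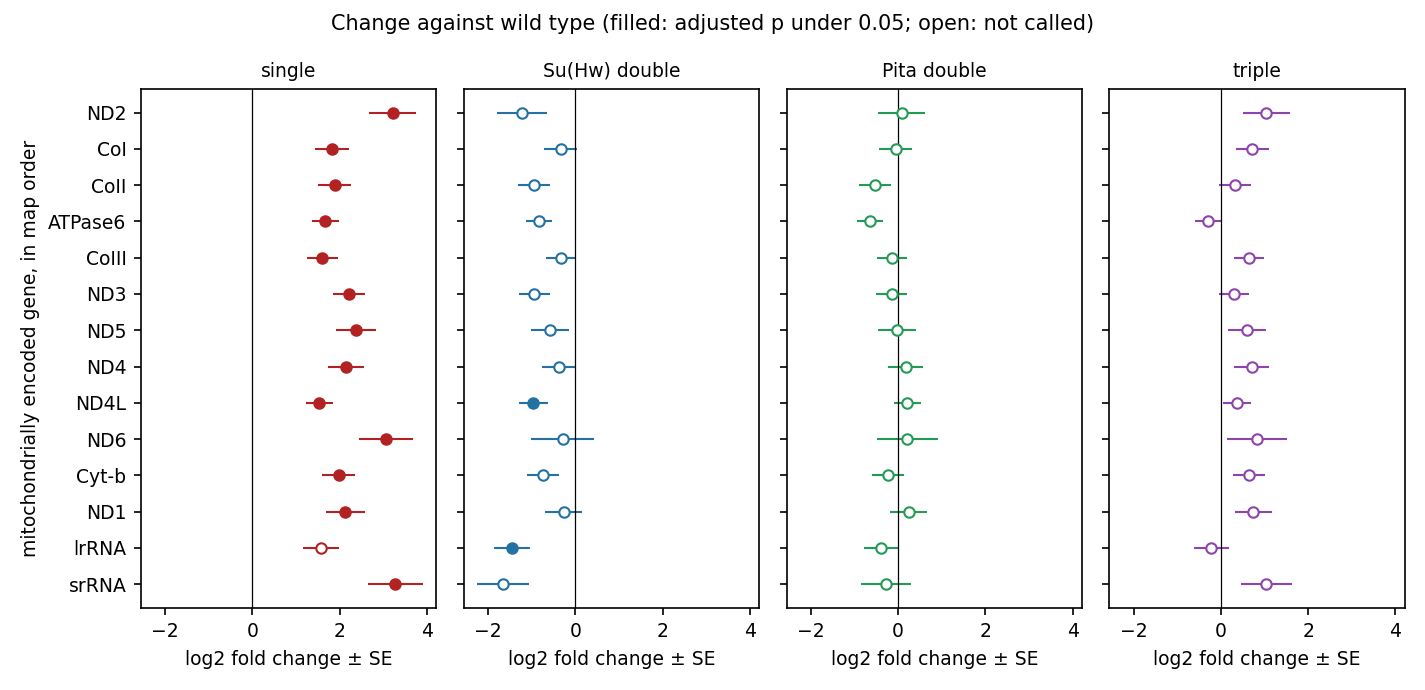
Log2 fold change against wild type ± SE of each tested mitochondrially encoded gene, in map order, 1 panel per mutant genotype, with filled points for an adjusted p under 0.05 (edgeR, 2 libraries per genotype, TMM scaling). Points lie between 1.53 and 3.27 in the single mutant, from -1.65 to -0.26 in the Su(Hw) double mutant, and on both sides of 0 in the others; under library totals the median of the Pita double mutant changes sign.

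The mutants were also compared with each other. On the single mutant background the 14 genes were lower with either added mutation. With the Su(Hw) mutation all 14 were called lower than in the single mutant, where 41.4% of all genes were called and 21.4% called lower. The median log2 fold change was -2.76, against 0.06 for all genes, and mt:srRNA at -4.92 (SE 0.68, adjusted p = 0.000352) and mt:ND2 at -4.42 (SE 0.58, adjusted p = 0.000255) changed the most. With the Pita mutation all 14 were again called lower, where 44.1% of all genes were called and 22.6% called lower, with a median of -2.25 against 0.06. The smallest change there was mt:ND4L at -1.32 (SE 0.29, adjusted p = 0.00412), and the largest mt:srRNA at -3.55 (SE 0.64, adjusted p = 0.00143). Both comparisons share the single mutant libraries, which also stand above wild type. Every library left out in turn kept 14 calls in each, and library totals, under which all genes had a median of 1.12 in both, kept 14 and 13. With the pseudogene covariate both comparisons had 0 calls, where 55 and 177 of all 10585 genes were called. Of the 14 values 7 and 11 changed sign.

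With both added mutations together, the levels stood above those of the Su(Hw) double mutant. Against the Su(Hw) double mutant, 6 of 14 genes were called higher in the triple mutant, where 22.6% of all genes were called and 12.1% called higher. These were mt:ND2 at a log2 fold change of 2.25 (SE 0.56, adjusted p = 0.0157), mt:srRNA at 2.69 (SE 0.62, adjusted p = 0.0109), mt:Cyt-b at 1.38 (SE 0.37, adjusted p = 0.0236), mt:ND4L at 1.33 (SE 0.32, adjusted p = 0.0132), mt:CoII at 1.26 (SE 0.37, adjusted p = 0.0319) and mt:ND3 at 1.24 (SE 0.36, adjusted p = 0.0285). The median of the 14 was 1.20, and the triple mutant libraries lay above both Su(Hw) double libraries for 12 of 14 genes, a separation not counted over all genes. The count was 13 without triple 1 and 0 without triple 2 or either Su(Hw) double library. Against the Pita double mutant 0 of 14 were called with edgeR and 0 with DESeq2, 4 had an unadjusted p under 0.05, and the median was 0.62, where 16.8% of all genes were called with edgeR. Without triple 1, 11 were called, and without triple 2 the median was -0.20.

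The interaction asks whether the 2 added mutations together changed a gene by the sum of their separate changes on the log2 scale. It was above 0 for all 14 genes, all called, where 45.3% of all genes were called and 23.2% called higher. The interaction log2 values ran from 2.65 for mt:ND4L to 6.24 for mt:srRNA with a median of 3.37, against -0.05 for all genes. Each added mutation alone came with lower levels than in the single mutant, and the triple mutant did not show the sum of the falls. All 14 calls were kept without any 1 library, with the median from 2.60 without triple 2 to 3.85 without triple 1, and under library totals, with a median of 1.83 and all genes at -1.45. Over the 8 libraries with the CTCF mutation, those with the Su(Hw) mutation had 12.8 mitochondrial reads per 100 nuclear reads and those without it 27.5 (geometric means), a log2 difference of -1.10 with p = 0.0571 in an exact two-sided permutation test of 4 against 4, which cannot go below 0.0286. With and without the Pita mutation the values were 17.8 and 19.8, a log2 difference of -0.15 with p = 0.829 in the exact permutation test; the sign changed without single 1, to 0.32, and without single 2, to 0.07.

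Ratios between members within a library ask whether the genes changed together. Reads on mt:ATPase6 and mt:ATPase8 per read on the 3 complex IV genes stood at 0.133 and 0.143 in wild type, 0.126 and 0.132 in the single mutant, 0.106 and 0.102 in the Su(Hw) double mutant, 0.105 and 0.0903 in the Pita double mutant, and 0.0880 and 0.0657 in the triple mutant. Every library with an added mutation lay below every library without one, and both triple libraries were the lowest. The ratio differed between the 5 genotypes with p = 0.00317 in an exact permutation test of the F statistic, adjusted p = 0.0159 over 5 ratios, where the smallest p possible is 0.00106. The adjusted p was 0.0159 to 0.0397 without triple 1, triple 2 or single 2, and 0.0529 to 0.122 without any other library.

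The other 3 ratios did not pass. Complex I reads per complex IV read were 0.131 ± 0.00760 in wild type (SD, n = 2), 0.179 ± 0.0236 in the single mutant, 0.128 ± 0.00252 in the Su(Hw) double mutant, 0.154 ± 0.0156 in the Pita double mutant and 0.127 ± 0.0146 in the triple mutant, with an adjusted p = 0.0701 from the exact permutation test. Reads on minus-strand protein genes per read on plus-strand ones ranged from 0.0767 in triple 1 to 0.120 in single 1, with an adjusted p = 0.106 from the same test. The rRNA reads per protein-gene read were 3.95 ± 0.0978 in wild type, 3.24 ± 0.731 in the single mutant, 2.06 ± 0.0752 in the Su(Hw) double mutant, 3.39 ± 0.415 in the Pita double mutant and 2.44 ± 0.443 in the triple mutant, with an adjusted p = 0.0617. Per kb and per read of mt:CoI, the member that kept closest to it over the 10 libraries was mt:CoIII, at 0.912 to 1.14 of its level. The members that moved most against it were mt:srRNA, from 0.0932 to 0.788, and mt:ND2, from 0.00128 to 0.00826.

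**Figure D4:**
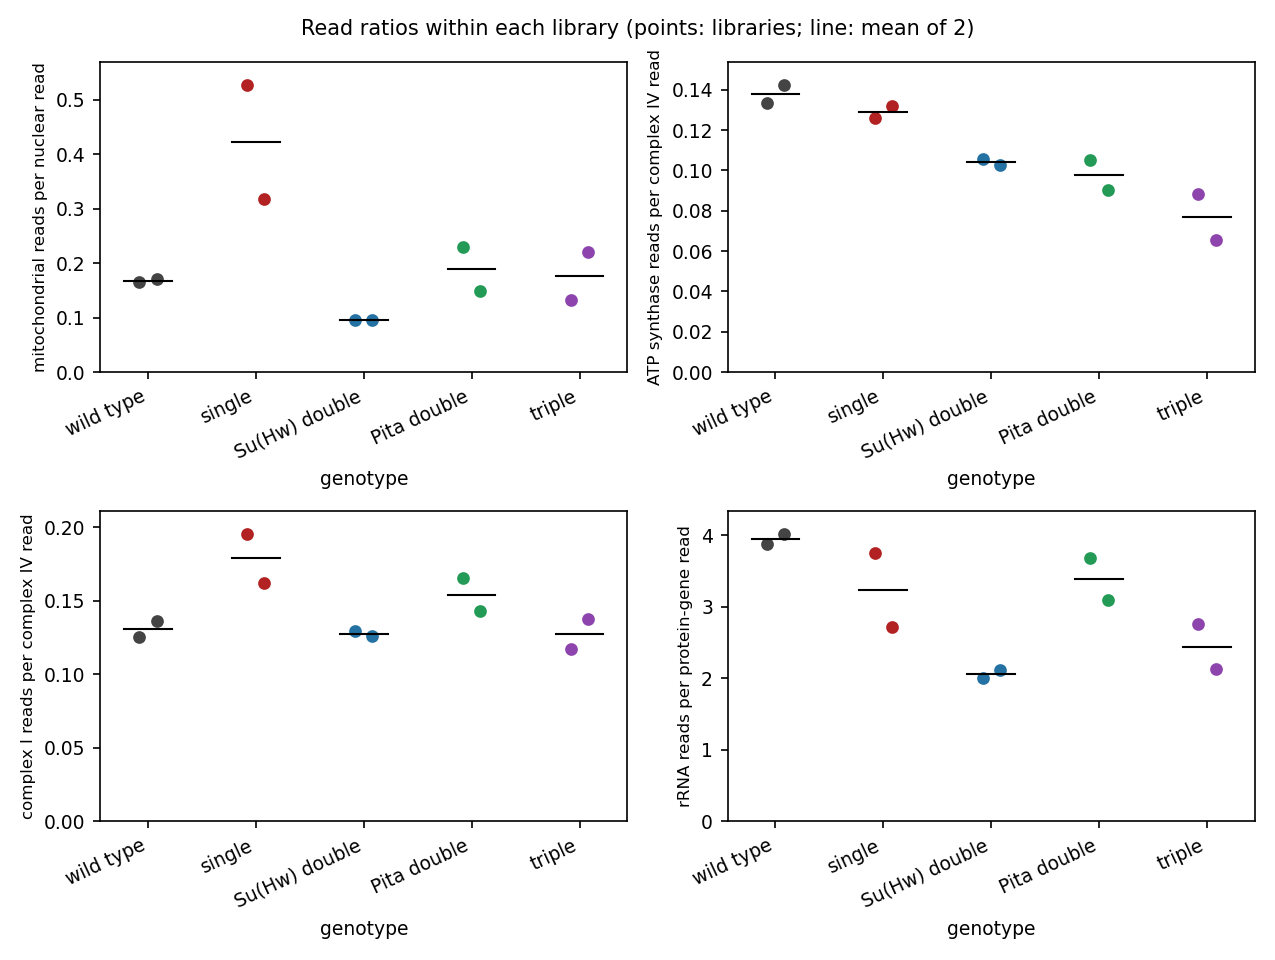
Ratios of reads within each library, by genotype: all mitochondrial reads per nuclear read, ATP synthase per complex IV reads, complex I per complex IV reads, and rRNA per protein-gene reads. Points are libraries and lines are means of 2; ATP synthase per complex IV reads lie at 0.126 to 0.143 in wild type and the single mutant and at 0.0657 to 0.106 in the other genotypes.

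Replicate libraries differed together over all members. The log2 ratio of replicate 1 to replicate 2 in CPM was above 0 for all 14 genes in the single mutant (median 0.69) and in the Pita double mutant (0.60), and below 0 for all 14 in the triple mutant (-1.34). In wild type and the Su(Hw) double mutant the medians were 0.05 and 0.01. The spread was widest for mt:srRNA, at -2.33 between the triple libraries and 1.20 between the single libraries, and for mt:ND6 at 2.05 between the Pita double libraries.

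Nuclear genes for the same complexes and for the upkeep of mitochondrial DNA were taken from 14 lists and read in the same fit. In the single mutant, where the mitochondrially encoded genes were higher, nuclear partners were called at about the share of all genes, 3.37%. Of 81 tested nuclear subunits of complexes I to V, 3 were called, all higher, with a median log2 fold change of 0.54 against -0.02 for all genes. Under library totals, with all genes at -0.59, none of these 3 was called and the median was -0.04. The 3 were the complex I subunits ND-AGGG (1.30, adjusted p = 0.0222), ND-MLRQ (0.89, adjusted p = 0.0473) and ND-B17.2 (0.68, adjusted p = 0.0485). Of 72 mitochondrial ribosomal protein genes 2 were called higher, tko at 1.50 (adjusted p = 0.0130) and mRpL42 at 1.03 (adjusted p = 0.00739), with a list median of 0.32 that turned to -0.24 under library totals. No other list held a call in this comparison.

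In the genotypes with an added mutation most nuclear subunits were lower, where 17.4%, 19.2% and 10.3% of all genes were called lower in the Su(Hw) double, Pita double and triple mutants. Against wild type, 63 of 81 were called lower and 2 higher in the Su(Hw) double mutant, with a median log2 fold change of -1.04. The counts were 66 lower and 8 higher in the Pita double mutant (median -1.09), and 53 lower and 2 higher in the triple mutant (median -0.84). Examples are ND-75 of complex I (-1.50 in the Pita double mutant, adjusted p = 0.000243), UQCR-C2 of complex III (-1.39 in the Su(Hw) double mutant, adjusted p = 0.000781), COX5A of complex IV (-1.62 in the Su(Hw) double mutant, adjusted p = 0.000938), SdhB of complex II, which has no mitochondrially encoded subunit (-1.32 in the Pita double mutant, adjusted p = 0.000176), and ATPsyndelta of the ATP synthase (-1.30 in the triple mutant, adjusted p = 0.000622). By complex, the calls in the Su(Hw) double mutant were 29 lower and 1 higher of 35 in complex I, 3 lower of 4 in complex II, 8 lower of 10 in complex III, 10 lower and 1 higher of 15 in complex IV, and 13 lower of 17 in complex V. Mitochondrial ribosomal protein genes were called lower in 43, 52 and 18 of 72, in the order of genotypes above, with medians of -0.67, -0.75 and -0.41, beside medians of -0.01, 0.00 and 0.00 for all genes. Under library totals the lower calls among the nuclear subunits were 40, 44 and 46 and those among the ribosomal proteins 4, 8 and 6. The medians stayed below 0 for both. All genes then had medians of 0.48, 0.48 and 0.14, and 3637, 3979 and 1615 of 10585 were called in either direction. How many of all genes were called lower under that scaling was not counted. Summed muscle markers were also lower in these genotypes, at 28339 to 43193 CPM against 62199 to 73277 in wild type and the single mutant. Larval cuticle markers were lower too, at 13474 to 14268 CPM against 32185 to 37168. Other sets went the other way: salivary gland genes were at 566 to 3110 CPM against 14.4 and 247 in wild type. Testis genes were at 24.5 to 46.7 CPM against 6.21 and 10.3. Neuron genes were higher than wild type in both double mutants and lower in the triple mutant. Hemocyte genes were higher in the Su(Hw) double mutant and lower in the Pita double and triple mutants. The part of these tissues in these counts was not tested.

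Set against the nuclear subunits of the respiratory complexes, mitochondrial protein-gene reads were relatively more abundant in every mutant library than in wild type. They numbered 1.17 and 1.20 per nuclear subunit read in wild type, 3.20 and 2.45 in the single mutant, 1.69 and 1.68 in the Su(Hw) double mutant, 2.64 and 1.98 in the Pita double mutant, and 2.39 and 3.97 in the triple mutant. The 8 mutant libraries all lay above both wild type libraries, while the nuclear subunits summed to 24788 and 27869 CPM in wild type, 38068 and 41108 in the single mutant and 11184 to 16691 in the 6 other libraries. This ratio was chosen after the values were seen and no test was made.

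Genes that act on mitochondrial DNA and its RNA were called in numbers to be read against the 33.3%, 37.8% and 21.2% of all genes called in the Su(Hw) double, Pita double and triple mutants. None of their counts exceeded those shares, which cover both directions. The shares of all genes called lower were 17.4%, 19.2% and 10.3%. In the Pita double mutant both the replication and transcription count and the RNA processing and decay count exceeded this share, at 3 genes each. In the Su(Hw) double and triple mutants the RNA processing and decay counts, of 2 and 1, lay near theirs. In lists this short 1 gene decides such a difference. Among 8 tested genes for replication and transcription, 1 was called lower in the Su(Hw) double mutant and 3 in the Pita double mutant. TFAM, which packages mitochondrial DNA and starts its transcription, was at 37.6 ± 0.0166 CPM in wild type (SD, n = 2), 46.5 ± 4.25 in the single mutant, 22.9 ± 0.872 in the Su(Hw) double mutant, 21.9 ± 3.57 in the Pita double mutant and 29.4 ± 1.62 in the triple mutant. It fell by 0.71 (SE 0.16, adjusted p = 0.00668) and by 0.78 (SE 0.16, adjusted p = 0.00392) on the log2 scale in the Su(Hw) and Pita double mutants. The 2 others called in the Pita double mutant were PolG1, the DNA polymerase of the organelle (-0.98, adjusted p = 0.0102), and mTTF, a transcription terminator (-0.56, adjusted p = 0.0404). Of 9 RNA processing and decay genes, 2, 3 and 1 were called, all lower, in the Su(Hw) double, Pita double and triple mutants, among them scu, a component of mitochondrial RNase P, in each of them (-0.73, -1.13 and -0.70). Under library totals, with all genes at 0.48, the medians of both lists in the Su(Hw) double mutant changed sign, to 0.03 and 0.13, and no lower call remained there in either, nor in the Pita double mutant in the first.

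The remaining lists are given in the same order of genotypes and read against the same shares of all genes. The synthetase, import and mitophagy counts did not exceed the shares for both directions. In the Pita double mutant the import count did exceed the 19.2% of all genes called lower. The mitophagy count there, 1 gene of 5, lay at about that share. Of 9 translation factor and membrane insertion genes, 3, 2 and 2 were called, all lower, among them the elongation factor mEFTu1 at -1.13, -1.17 and -0.76. Of 15 mitochondrial aminoacyl-tRNA synthetase genes, 1, 2 and 1 were called, all lower. Of 13 import, chaperone and protease genes, 1, 4 and 1 were called, the 4 lower and the others higher, namely Tim17b (0.78 and 0.92). Of 6 regulators of mitochondrial biogenesis, 3, 3 and 1 were called, with cnc (0.72, 0.58 and 0.55) and srl, the fly PGC-1 homolog (0.73 and 0.54), higher and TFAM lower. Of 5 mitophagy and dynamics genes, only Pink1 in the Pita double mutant was called (-0.39), and of 4 antioxidant genes 3, 3 and 2 were called, all lower. Under library totals the lower calls numbered 1, 1 and 0 among the translation genes and 0, 2 and 1 among the antioxidant genes. None remained among the synthetase, import, biogenesis and mitophagy genes. The share of all genes called lower under that scaling was not counted.

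The nuclear genes whose levels were most like the mitochondrial protein genes over the 10 libraries were searched among 5991 genes with a mean of at least 10 CPM, by the Pearson correlation of log2 CPM with the mean of the 12 tested protein genes. The 5 with the highest correlation were all pseudogenes of the nuclear 28S rRNA: 28SrRNA-Psi:CR45855 (r = 0.993), CR41609 (0.988), CR45859 (0.987), CR40741 (0.977) and CR45860 (0.977). These values are a description over 10 libraries, which share their depth, library preparation and scaling with the mitochondrial genes. The 23 nuclear rRNA pseudogenes in the files, 15 of them with reads, summed to 1022 and 954 CPM in wild type, 3429 and 2176 in the single mutant, 532 and 593 in the Su(Hw) double mutant, 874 and 599 in the Pita double mutant, and 832 and 1558 in the triple mutant. The 13 mitochondrial protein genes summed to 32746 and 29761 CPM in wild type, 131556 and 93150 in the single mutant, 21974 and 21801 in the Su(Hw) double mutant, 31774 and 23401 in the Pita double mutant, and 26684 and 66300 in the triple mutant. Per pseudogene read there were 31.2 to 42.8 mitochondrial protein-gene reads over all 10 libraries.

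**Figure D5:**
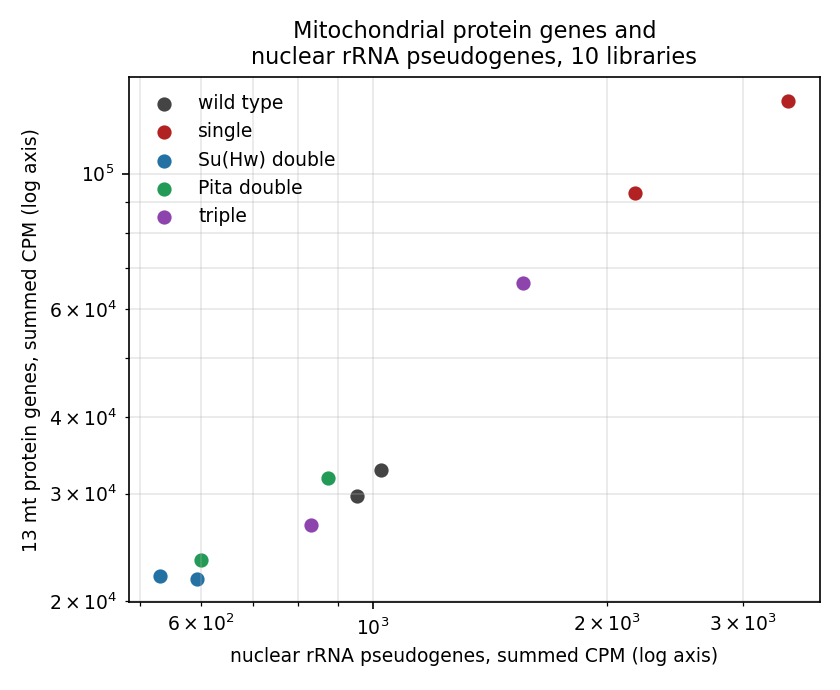
Summed CPM of the 13 mitochondrial protein genes against summed CPM of the nuclear rRNA pseudogenes, both on log axes, with 1 point per library coloured by genotype. The libraries line up from Su(Hw) double 2 at 21801 and 593 CPM to single 1 at 131556 and 3429 CPM.

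Libraries rich in mitochondrial reads were thus rich in nuclear rRNA pseudogene reads, and single 1 and single 2 also had the highest share of reads that mapped to several places, at 65.5% and 63.3% against 50.9% to 60.2% in the others. With the log2 level of the pseudogenes as a covariate, an alternative chosen after seeing the data, 0 of 14 members were called in the single mutant against wild type and 0 in the interaction, where 18 and 15 of all genes were called. Of 63 calls on members over all comparisons, 29 then had the opposite sign, but 0 of the 13 in the single mutant against wild type. The covariate runs nearly parallel to the mitochondrial genes over the libraries and takes 1 residual degree of freedom, so the genotype and the content of rRNA-like reads cannot be told apart here.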

How the data were processed

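The authors deposited, per the file layout, 1 table per library of raw read counts per gene, as the STAR aligner writes them, with unstranded counts and 2 stranded columns. The submitters' processing notes name cutadapt, STAR and the build dm6; versions were not stated. Per the labels' protocols, libraries were made from 50 ng of total RNA with oligo(dT) beads, NEBNext Ultra and 12 PCR cycles and sequenced in pairs on a NovaSeq instrument. Reads mapping to several places, and fragments touching 2 genes, are tallied apart and in no gene. This can lower counts for short or abutting genes such as the tRNAs and mt:ATPase8, by an amount that was not tested. The unstranded column was used, since 50.1% to 50.3% of strand-assigned reads fell in the forward column. Gene IDs were named from an Ensembl annotation for 17597 of 17735 genes.

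Genes were kept by edgeR's filterByExpr, which left 10585 genes and at least 99.66% of the reads. One model of 10 libraries and 5 genotypes was fitted with TMM factors (0.553 to 1.35) and edgeR's quasi-likelihood F-test in R 4.3.3 (edgeR 4.0.16), with Benjamini-Hochberg adjustment over all genes and a threshold of 0.05. The fit was tested on simulated data. Within-library read ratios were compared on the log2 scale by exact permutation tests with python 3.11.15 and numpy 2.4.6. Alternatives were DESeq2 1.42.0, RLE size factors, library totals, nuclear genes only for scaling, no filter, summed stranded columns, summed Su(Hw) double libraries, a replicate block, each library left out in turn and, added after seeing the data, a pseudogene covariate. All genes with the prefix mt: are accounted for, with each library's value for the protein and rRNA genes; from the 14 nuclear lists, called genes with the smallest adjusted p were eligible for naming. Members and lists were chosen with earlier results of these data known. Intervals and floors cover counting error only, since PCR copies were not marked.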

Additional observations from a re-analysis of the deposited data

Results flagged for a closer look

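The interaction between both added mutations differed from 0 for each of the 14 tested mitochondrially encoded genes, by edgeR's test of the interaction term. Of all genes 45.3% were called in that test and 23.2% called higher. With the pseudogene covariate 0 of the 14 were called and 9 changed sign, where 15 of 10585 genes were called. The log2 values were 5.38 for mt:ND2, 2.93 for mt:CoI, 3.67 for mt:CoII, 2.84 for mt:ATPase6, 2.72 for mt:CoIII, 3.60 for mt:ND3, 3.57 for mt:ND5, 3.04 for mt:ND4, 2.65 for mt:ND4L, 3.97 for mt:ND6, 3.57 for mt:Cyt-b, 2.89 for mt:ND1, 3.17 for mt:lrRNA and 6.24 for mt:srRNA.

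The stranded count columns, which entered the comparisons above only as an alternative to the unstranded counts, held reads for members that had none or 1 in the unstranded column. The tRNA gene mt:tRNA:Tyr-GTA had 198 reads there over the 10 libraries and mt:ori had 322. By genotype, mt:ori averaged 3.43 CPM in wild type, 17.6 in the single mutant, 1.89 in the Su(Hw) double mutant, 4.42 in the Pita double mutant and 2.95 in the triple mutant. For mt:tRNA:Tyr-GTA the means were 2.80, 10.3, 0.990, 2.00 and 2.63 CPM in the same order. In all, 15 of the 22 tRNA genes had such reads, 378 together. In an unstranded library a fragment that overlaps genes on both strands is unassigned in the unstranded column and can be assigned in a stranded one.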

How the results depend on the processing

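Counts of called members are out of 14, except where an alternative let further members into the test. Without the filter on low counts these were mt:ATPase8 and mt:ori. Each alternative changed 1 choice except DESeq2, which has its own scaling and filter. Against wild type, library totals gave 1 call in the Su(Hw) double mutant and 2 in the triple, where 3637 and 1615 of 10585 genes were called. They also turned the Pita double median to 0.39. With no filter on low counts the calls were 7, 1 and 1 in both double mutants (Su(Hw), then Pita) and the triple mutant against wild type, 12 in the triple against the Su(Hw) double mutant and 5 against the Pita double mutant. Of 15256 genes, 3730, 4228, 2497, 2636 and 2221 were called in the same order. DESeq2 gave 4 in the Su(Hw) double mutant against wild type and 10 in the triple against the Su(Hw) double mutant. There 2467 of 11444 and 1804 of 9684 genes were called. With the Su(Hw) double libraries summed into 1, calls were 3 in the single mutant and 0 in the Su(Hw) double mutant against wild type and 0 in the triple against the Su(Hw) double mutant, and the adjusted p from the exact permutation test was 0.165 for mitochondrial to nuclear reads and 0.106 for ATP synthase to complex IV reads.

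Same-numbered libraries did not deviate together (r from -0.149 to 0.153 between genotypes), so the numbers name libraries only. With a replicate block 1 member was called in the Su(Hw) double mutant against wild type and the adjusted p for mitochondrial to nuclear reads was 0.0729; other counts stayed within 1.5 times.

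With the pseudogene covariate the calls were 0 in the single, 1 in the Su(Hw) double, 4 in the Pita double and 2 in the triple mutant against wild type, 0 in both comparisons with the single mutant, 0 and 1 in the triple against the Su(Hw) and Pita double mutants, and 0 in the interaction. Of all 10585 genes the calls in the same order were 18, 1338, 3257, 2650, 55, 177, 482, 717 and 15. Medians with a turned sign were 0.22 for the Su(Hw) double and 0.51 for the Pita double mutant against wild type, 0.29 for the Pita double against the single mutant, -0.10 and -0.38 for the triple against the Su(Hw) and Pita double mutants, and -0.29 for the interaction. The cause was not tested.

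Leaving out 1 library gave 0 to 14 calls in the single, 0 to 8 in the Su(Hw) double, 0 to 1 in the Pita double and 0 to 8 in the triple mutant against wild type, 14 to 14 in both comparisons with the single mutant and in the interaction, 0 to 13 in the triple against the Su(Hw) double mutant and 0 to 11 against the Pita double mutant. A genotype left with 1 library is assumed to vary like the others. The number of all genes called also moved with the library left out, so these counts do not describe the members alone. The median log2 fold change ran from -0.52 without Pita double 1 to 0.14 without Pita double 2 against wild type, and for the triple mutant from -0.29 without triple 2 to 1.17 without triple 1 against wild type and from -0.20 to 1.27 against the Pita double mutant. Adjusted p-values from the exact permutation tests ran from 0.0335 to 0.171 for mitochondrial to nuclear reads, 0.0335 to 0.171 for the rRNA share, 0.0582 to 0.249 for the minor-strand share, 0.0582 to 0.205 for complex I to IV and 0.0159 to 0.122 for ATP synthase to IV. The Su(Hw) factor ran from -1.40 to -0.79 and the Pita factor from -0.51 to 0.32, with 0.07 without single 2. Over the 63 called values of single members and the 18 alternatives other than the pseudogene covariate, 1020 combinations kept the call, 114 lost it and 0 reversed; under the covariate 29 of the 63 changed sign. Depth limits mt:ATPase8 and mt:ND6, which had 10 and 250 reads over all libraries.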
